A study of Homo sapiens with 9 samples.

Results

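The genes described here build and run the lysosome: 16 subunits and accessory proteins of the vacuolar proton pump (V-ATPase), 23 hydrolases (10 cathepsins and 13 other enzymes), 2 luminal cofactors, 6 membrane proteins and the 3 transcription factors TFEB, TFE3 and MITF. They were taken by gene symbol from a list named for these functions and all 50 were found among the 58395 gene identifiers and passed the filter on low counts. The study knocked down SLC39A7, which encodes the zinc transporter ZIP7 of the endoplasmic reticulum and Golgi, in MDA-MB-231 cells, an established triple-negative breast cancer line. Cells were reverse transfected with a nontargeting control siRNA (siNC) or with either of 2 individual ZIP7 siRNAs (siZIP7_1 and siZIP7_2) and their total RNA was sequenced after 96 h, with 3 libraries per siRNA and 9 in all. Every group shares the line, the medium and the transfection. The model is a single cell line, and no label says that the libraries of a group came from separate cultures, so p-values measure the spread between these libraries, which may be technical.

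The lysosome breaks down proteins, lipids and glycans with hydrolases that work best in acid. The acid comes from the V-ATPase, in which a cytosolic V1 sector burns ATP and turns a rotor, and a membrane V0 sector carries protons into the lumen. TFEB, TFE3 and MITF (the MiT/TFE family) bind the DNA word CACGTG and the longer element around it near the start of many lysosomal genes, and they are known to be held in the cytosol when mTORC1 on the lysosome phosphorylates them. For TFEB and TFE3 an mRNA level therefore says little about activity.

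The targeted gene was low in every knockdown library. SLC39A7 (ENSG00000112473, chromosome 6, 33200445 to 33204439 on GRCh38) was at 321, 343 and 322 CPM (read counts scaled to library size, with TMM factors) in the siNC libraries. The siZIP7_1 libraries were at 35.4, 32.9 and 38.6 CPM and the siZIP7_2 libraries at 20.5, 19.5 and 17.6 CPM. The log2 fold change was -3.20 ± 0.058 (SE, adjusted p = 7.38e-27, edgeR quasi-likelihood test) with siZIP7_1 and -4.10 ± 0.063 (adjusted p = 1.16e-28) with siZIP7_2, and siZIP7_2 left less transcript than siZIP7_1 (log2 difference -0.89 ± 0.066, adjusted p = 4.89e-13). Libraries held between 24153785 and 30454419 reads counted on genes, and 16761 genes were tested. All 5 markers of MDA-MB-231 cells were detected in each group and summed to 8580 to 9160 CPM in siNC, 5210 to 5540 CPM with siZIP7_1 and 5920 to 6110 CPM with siZIP7_2. They moved differently, since VIM, the mesenchymal intermediate filament, had means of 5530, 2690 and 2900 CPM, and CD44, the hyaluronan receptor, 816, 465 and 1790 CPM.

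More of the proton pump than of the hydrolases rose with siZIP7_1. With siZIP7_1, 14 of 16 pump genes rose, 2 fell, and 13 rose by at least 1.5-fold, whereas 12 of 23 hydrolase genes rose (5 of them by at least 1.5-fold), 7 fell (4 by at least 1.5-fold) and 4 were not called. With siZIP7_2, 10 pump genes rose and 2 fell, with 3 rising by at least 1.5-fold (18.8%). Of the hydrolase genes 13 rose and 6 fell, with 7 rising (30.4%) and 2 falling by at least 1.5-fold. A gene was called at an adjusted p under 0.05 in a fit across all tested genes, and calls were common in these data. Among all tested genes 34.8% were higher and 35.9% lower with siZIP7_1, and 38.5% higher and 39.3% lower with siZIP7_2. At 1.5-fold or more, 19.6% of all tested genes were called higher and 18.8% lower with siZIP7_1, and 24.9% higher and 23.2% lower with siZIP7_2. Read against these shares, the pump with siZIP7_1 (87.5% higher) stood farthest from the background, and the hydrolases with siZIP7_1 (52.2% higher, 30.4% lower) stood closer to it.

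The median log2 fold change of the pump genes was 0.78 with siZIP7_1 and 0.29 with siZIP7_2. The hydrolase medians were 0.16 and 0.19, and the medians of all tested genes were -0.01 and 0.00. In single libraries, the pump median minus the hydrolase median, each as log2(CPM + 0.1) relative to the siNC average, lay between -0.018 and 0.011 with siNC. It lay between 0.52 and 0.63 in the siZIP7_1 libraries and between -0.004 and 0.19 in the siZIP7_2 libraries, so the siZIP7_1 libraries lay apart from both other groups and the siZIP7_2 libraries reached down into the siNC range. Genes are not replicates and no p is given for these medians. The hydrolase median in siZIP7_2 rested partly on library 2, where it was 0.056 against 0.25 and 0.28 in the other libraries.

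**Figure D1:**
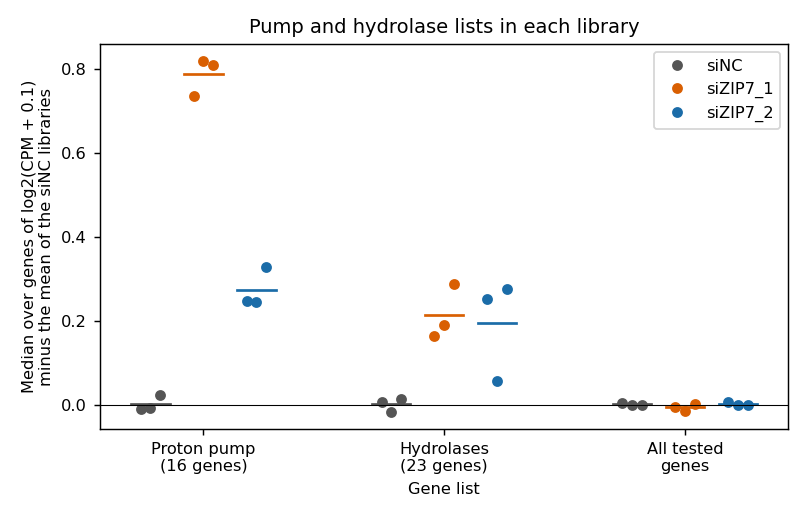
Median over the genes of each list of log2(CPM + 0.1) relative to the siNC average (vertical axis), for the pump, the hydrolases and all tested genes (horizontal axis); points are libraries, lines are group means. The pump lies between 0.74 and 0.82 in the siZIP7_1 libraries and between 0.25 and 0.33 in the siZIP7_2 libraries, while the hydrolases overlap between the siRNAs.

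Reads were also summed over each set. The pump genes together took 1250 ± 20.8 CPM (SD, n = 3) in siNC, and with siZIP7_1 and siZIP7_2 they took 2130 ± 49.3 and 1590 ± 45.8 CPM. The hydrolases together took 2180 ± 30 CPM, 2410 ± 50.3 CPM and 2670 ± 137 CPM. The pump sum was thus highest with siZIP7_1 and the hydrolase sum highest with siZIP7_2, and for each sum the 3 groups were fully apart. Long and abundant genes dominate such sums. Cathepsins supplied the rise of the hydrolase sum with siZIP7_2 (1380 ± 11.5, 1330 ± 10 and 1850 ± 102 CPM), and the other hydrolases supplied that with siZIP7_1 (798 ± 22.2, 1090 ± 35.1 and 818 ± 34 CPM).

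Across all 50 genes, 34 rose and 9 fell with siZIP7_1, and 30 rose and 10 fell with siZIP7_2. At 1.5-fold or more, 22 rose and 5 fell with siZIP7_1, and 14 rose and 3 fell with siZIP7_2. When the knockdowns were compared with each other, 13 genes were higher with siZIP7_2 and 26 lower, against a background of 38.1% higher and 40.6% lower. At 1.5-fold or more 9 genes were higher and 19 lower, with a background of 25.2% and 24.7%. Both comparisons with control use the same siNC libraries. With that in mind, 20 of the 50 genes (40%) were higher with each siRNA where 17.7% of all tested genes were, 3 (6%) were lower with each where 20.8% were, and 12 (24%) went in opposite directions where 18.7% did. The other 15 were called with a single siRNA or with neither. Of the pump genes, 9 of 16 were higher with each siRNA and 2 went in opposite directions. Of the hydrolases, 5 of 23 were higher with each and 9 went in opposite directions.

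**Figure D2:**
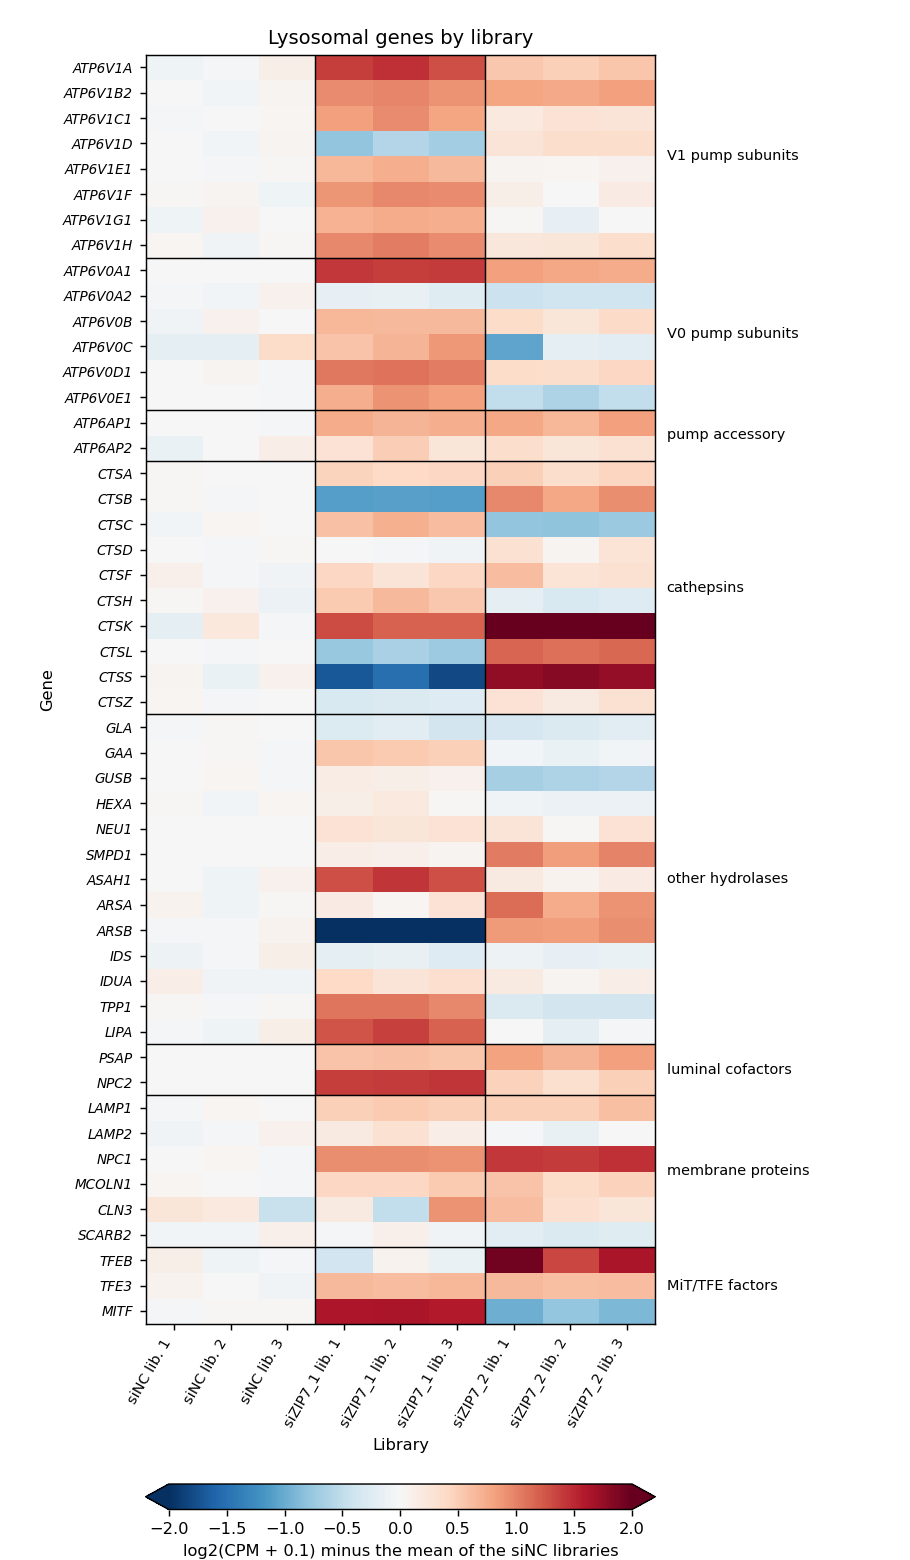
Expression of the 50 genes (rows, grouped by role) in the 9 libraries (columns) as log2(CPM + 0.1) relative to the siNC average; red is higher and blue lower, and colours stop at -2 and 2. Most pump rows are red in the siZIP7_1 libraries and paler in the siZIP7_2 libraries, and several cathepsin rows change colour between the knockdowns.

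The promoters of several of these genes carry the MiT/TFE word, and some are printed here because the factors in the list are known to act there. RefSeq promoter windows (GRCh38.p14, 250 bases before to 50 after the start) were at hand for 37 of the 50 genes. The word CACGTG, which reads the same on both strands, was in 11 of them (29.7%), against 7.26% of 35116 promoters of the same length. The longer words that contain it, searched on both strands, were TCACGTG (11 genes, 29.7% against 3.71%) and TCACGTGAC (7 genes, 18.9% against 0.84%). Each longer word includes the shorter ones, so these counts are not independent. The share with CACGTG was similar in the pump (3 of 11), the hydrolases (5 of 17) and the other genes (3 of 9). The stretches from 90 bases before to 10 bases after the start follow for 7 genes of the pump, the hydrolases and the membrane proteins, 5′ to 3′, with every letter covered by any of the 3 words on either strand in capitals.
ATP6V1G1 (chr9:114587679-114587778, plus strand): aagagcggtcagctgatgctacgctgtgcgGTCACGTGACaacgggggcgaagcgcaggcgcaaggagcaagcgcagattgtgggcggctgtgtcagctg
ATP6V0B (chr1:43974870-43974969, plus strand): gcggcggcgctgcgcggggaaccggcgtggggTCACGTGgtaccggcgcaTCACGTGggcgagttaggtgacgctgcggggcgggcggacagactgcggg
ATP6V0D1 (chr16:67481148-67481247, minus strand): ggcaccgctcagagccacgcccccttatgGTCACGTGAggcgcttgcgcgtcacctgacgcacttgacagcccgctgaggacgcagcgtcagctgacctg
CTSA (chr20:45891245-45891344, plus strand): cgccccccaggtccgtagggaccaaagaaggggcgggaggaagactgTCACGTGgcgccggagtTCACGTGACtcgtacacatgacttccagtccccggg
GAA (chr17:80101491-80101590, plus strand): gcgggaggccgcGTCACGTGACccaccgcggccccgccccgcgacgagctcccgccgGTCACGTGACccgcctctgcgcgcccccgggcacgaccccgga
LAMP1 (chr13:113297149-113297248, plus strand): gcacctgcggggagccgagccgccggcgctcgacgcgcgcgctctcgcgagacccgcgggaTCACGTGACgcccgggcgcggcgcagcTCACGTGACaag
MCOLN1 (chr19:7522534-7522633, plus strand): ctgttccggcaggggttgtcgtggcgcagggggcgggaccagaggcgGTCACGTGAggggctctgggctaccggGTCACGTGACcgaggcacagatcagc

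Only 250 bases before to 50 after the start were searched, so each word had to lie near it. In ATP6V1G1, a stalk subunit of the pump, the single word was centred 55 bases before it, in ATP6V0D1 56 bases before it, and ATP6V0B carried a pair at 54 and 36 bases before it. GAA, the glycogen-degrading alpha-glucosidase, and MCOLN1, a lysosomal calcium channel, each carried a pair (73 and 28, and 38 and 11 bases before the start). LAMP1 had 6 copies in its window, 4 of them between 189 and 139 bases before the start and so outside the printed stretch. The other holders were CTSA, CTSD, CTSF, NEU1 and CLN3, with words as far as 123 bases before the start in NEU1 and 120 in CTSF. Over all tested genes, 34.8% rose and 35.9% fell with siZIP7_1, and 38.5% rose and 39.3% fell with siZIP7_2. Of the 11 genes with the word, 9 rose and none fell with siZIP7_1, and 8 rose and none fell with siZIP7_2. Of the 26 whose window lacked it, 16 rose and 7 fell with siZIP7_1, and 12 rose and 9 fell with siZIP7_2. Of the 13 with no window at hand, 9 rose and 2 fell with siZIP7_1 and 10 rose and 1 fell with siZIP7_2, with median log2 fold changes of 0.82 and 0.51. The median log2 fold changes of genes with and without the word were 0.45 and 0.46 with siZIP7_1, and 0.38 and 0.11 with siZIP7_2. These are counts in a short window and no test of binding was made.

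The MiT/TFE factors themselves answered in 3 different ways. TFEB (ENSG00000112561, chromosome 6, 41683978 to 41736259) was scarce, at 3.41, 2.96 and 3.10 CPM in siNC and 2.40, 3.30 and 2.86 CPM with siZIP7_1. It rose to 12.3, 8.09 and 10 CPM with siZIP7_2, above every other library. The log2 fold change was 1.67 ± 0.14 with siZIP7_2 (SE, adjusted p = 1.14e-11, edgeR) and -0.15 ± 0.17 with siZIP7_1 (adjusted p = 0.448, 95% interval -0.50 to 0.20), and the siRNAs differed by 1.82 ± 0.14 (adjusted p = 1.42e-12). TFE3 (ENSG00000068323, chromosome X, 49028726 to 49043486) was the most abundant of the family per length, at 22.1 CPM per kb of exon in siNC against 3.43 for MITF and 0.559 for TFEB. It stood at 99.0, 94.6 and 90.5 CPM in siNC, 148, 145 and 150 CPM with siZIP7_1 and 149, 143 and 146 CPM with siZIP7_2. TFE3 rose by a log2 of 0.65 ± 0.047 (adjusted p = 4.49e-13, edgeR) and 0.63 ± 0.047 (adjusted p = 7.00e-13), and the interval of the difference between the siRNAs was -0.11 to 0.08.

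MITF (ENSG00000187098, chromosome 3, 69739435 to 69968337), best known as the master factor of pigment cells, went opposite ways. Its levels were 24, 24.9 and 24.9 CPM in siNC, 75.3, 76.1 and 73.8 CPM with siZIP7_1 and 12.5, 14.4 and 13.2 CPM with siZIP7_2. The groups were fully apart. MITF rose with siZIP7_1 (log2 1.61 ± 0.057, adjusted p = 2.11e-20, edgeR) and fell with siZIP7_2 (-0.88 ± 0.066, adjusted p = 8.95e-13), a difference of -2.49 ± 0.061 (adjusted p = 2.12e-24). The deposited counts are per gene, so the several promoters and isoforms of MITF were not separated. TFEC, the remaining relative of the family, was chosen for mention after its values were seen and had means of 0.125, 0.763 and 0.671 CPM in siNC, siZIP7_1 and siZIP7_2.

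In the V1 sector 7 of 8 genes rose with siZIP7_1, all of them by at least 1.5-fold, and 5 rose with siZIP7_2, of which ATP6V1B2 alone reached 1.5-fold. These shares were 87.5% and 62.5%, against 34.8% and 38.5% of all tested genes. At 1.5-fold or more with siZIP7_2, the V1 share of 12.5% lay under the 24.9% of all tested genes. ATP6V1A, the catalytic subunit that splits ATP, was at 45.9, 47.9 and 52.7 CPM in siNC, 127, 134 and 119 CPM with siZIP7_1 and 70.5, 67.6 and 71.4 CPM with siZIP7_2. It rose by a log2 of 1.37 ± 0.056 (adjusted p = 6.16e-19, edgeR) and 0.51 ± 0.057 (adjusted p = 3.05e-09), and siZIP7_2 minus siZIP7_1 was -0.86 (adjusted p = 1.24e-14). ATP6V1B2, its non-catalytic partner in the ATP-binding ring, was at 80.5, 78.5 and 84.8 CPM in siNC, 156, 160 and 151 CPM with siZIP7_1 and 140, 138 and 144 CPM with siZIP7_2. Its log2 fold changes of 0.94 ± 0.047 (adjusted p = 1.05e-16, edgeR) and 0.79 ± 0.047 (adjusted p = 4.13e-15) were the most alike of the V1 genes. ATP6V1H, a regulatory subunit, went from 44.4, 40.9 and 43.9 CPM in siNC to 83.5, 87.9 and 82.8 CPM with siZIP7_1 and 50.5, 51.2 and 55.1 CPM with siZIP7_2. The log2 fold changes were 0.98 ± 0.053 (adjusted p = 6.28e-16, edgeR) and 0.28 ± 0.055 (adjusted p = 4.15e-05).

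The remaining V1 genes were ATP6V1C1, which links stator and ring, the stalk subunits ATP6V1E1 and ATP6V1G1, and the rotor subunits ATP6V1D and ATP6V1F. ATP6V1C1 rose with each siRNA (means of 122, 221 and 145 CPM in siNC, siZIP7_1 and siZIP7_2). ATP6V1E1 (72.8, 116 and 75.9 CPM), ATP6V1F (49.5, 94.2 and 53.1 CPM) and ATP6V1G1 (86.2, 142 and 83.3 CPM) rose with siZIP7_1 and were not called with siZIP7_2. ATP6V1D was the exception. It stood at 67.9, 65.8 and 70.9 CPM in siNC, fell to 39.6, 45.6 and 41.9 CPM with siZIP7_1 and rose to 81.8, 87.1 and 86.9 CPM with siZIP7_2, while ATP6V1F, the subunit with which it forms the rotor axle, rose with siZIP7_1. Its changes on the log2 scale were -0.69 ± 0.056 (adjusted p = 5.37e-12, edgeR) and 0.32 ± 0.054 (adjusted p = 3.91e-06).

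In the V0 sector, 5 of 6 genes rose and 1 fell with siZIP7_1 (83.3% and 16.7%, against 34.8% and 35.9% of all tested genes). With siZIP7_2, 3 rose and 2 fell (50% and 33.3%, against 38.5% and 39.3%), with a median log2 fold change of -0.04. The 2 accessory genes rose with each siRNA. ATP6V0A1, which holds the half-channels through which protons pass, was at 66.0, 66.5 and 66.9 CPM in siNC, 178, 174 and 175 CPM with siZIP7_1 and 118, 114 and 111 CPM with siZIP7_2. It rose by a log2 of 1.40 ± 0.046 (adjusted p = 4.34e-21, edgeR) and 0.78 ± 0.046 (adjusted p = 3.50e-15). Its paralog ATP6V0A2, a Golgi form of the same subunit, fell slightly with each siRNA, from 65.2, 65.0 and 71.6 CPM to 59.8, 60.3 and 56.9 CPM and to 50.1, 51.1 and 50.7 CPM. The fitted log2 fold changes were -0.19 ± 0.052 (adjusted p = 0.00176, edgeR) and -0.41 ± 0.052 (adjusted p = 4.49e-08). In siNC these paralogs were level per length, at 6.07 CPM per kb for ATP6V0A1 and 4.90 for ATP6V0A2, and with siZIP7_1 they were at 16 and 4.30. TCIRG1, a further paralog outside the 50 genes, was higher than either, at 24.6, 23.5 and 37.0 CPM per kb in siNC, siZIP7_1 and siZIP7_2. It was not called with siZIP7_1 (log2 -0.07, adjusted p = 0.296, edgeR) and rose with siZIP7_2 (0.59, adjusted p = 9.87e-11).

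ATP6V0D1, which couples the rotor to the proteolipid ring, went from 90.0, 93.5 and 87.8 CPM in siNC to 187, 192 and 184 CPM with siZIP7_1 and 117, 116 and 121 CPM with siZIP7_2. Its log2 fold changes were 1.05 ± 0.046 (adjusted p = 3.65e-18, edgeR) and 0.38 ± 0.047 (adjusted p = 1.98e-08). ATP6V0B, a ring subunit, rose with each siRNA (means of 147, 230 and 185 CPM). ATP6V0E1, a small V0 subunit, rose with siZIP7_1 and fell with siZIP7_2 (means of 80.6, 143 and 55.7 CPM, log2 0.82 ± 0.051 and -0.54 ± 0.053, adjusted p = 1.20e-14 and 3.33e-10 by edgeR). ATP6V0C, the main proteolipid of the ring, was listed at means of only 1.02, 1.70 and 0.709 CPM. The annotation places read-through genes over 72.1% of its exonic length on the same strand, where reads may have been left uncounted, so its level is uncertain.

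The accessory subunits rose with each siRNA and by similar amounts. ATP6AP1, which helps assemble the pump, was at 172, 171 and 168 CPM in siNC, 284, 272 and 281 CPM with siZIP7_1 and 292, 270 and 300 CPM with siZIP7_2. Against siNC its log2 fold changes were 0.71 ± 0.047 (adjusted p = 6.22e-14, edgeR) and 0.75 ± 0.047 (adjusted p = 1.39e-14), with an interval of -0.06 to 0.14 for the difference. ATP6AP2, also known as the prorenin receptor, rose by a log2 of 0.35 ± 0.064 and 0.30 ± 0.064, and the interval of its difference was -0.18 to 0.08. These were the only 2 of the 16 pump genes not called between the siRNAs, and under upper-quartile scaling ATP6AP1 was called higher with siZIP7_2 (log2 0.12, adjusted p = 0.018, edgeR). Of the other 14, ATP6V1D was higher with siZIP7_2 and 13 were lower.

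**Figure D3:**
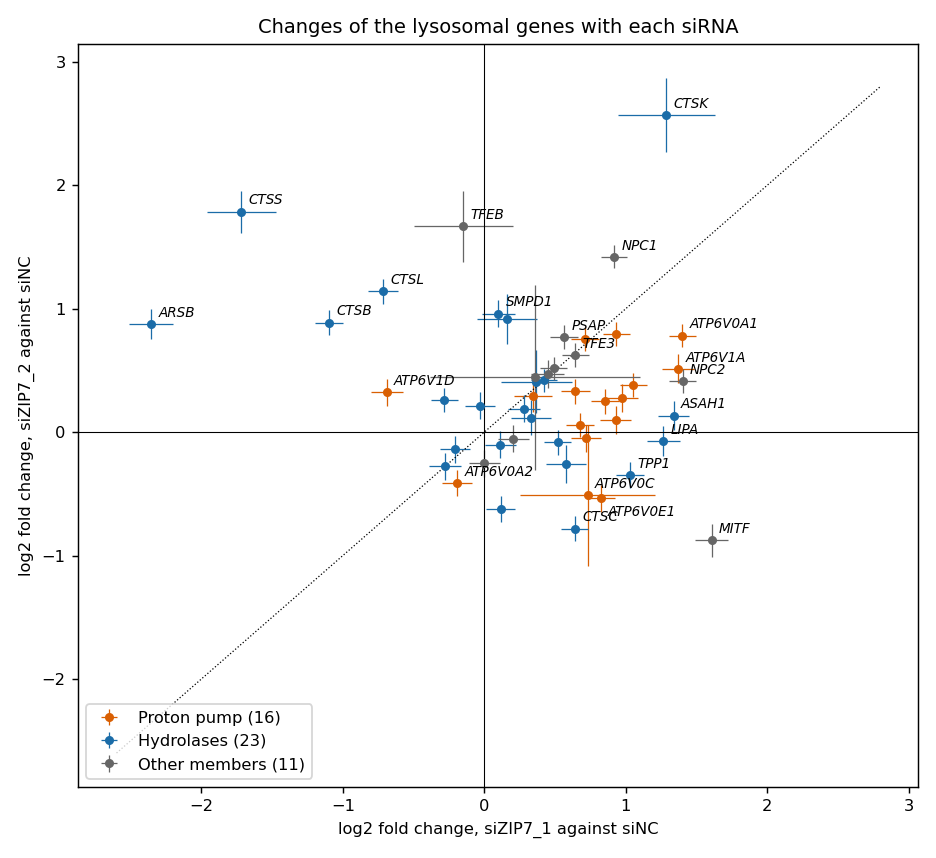
Log2 fold change of each of the 50 genes against siNC with siZIP7_1 (horizontal axis) and with siZIP7_2 (vertical axis); bars are 95% intervals from the edgeR fit and the dotted line marks equal change. Most pump genes lie right of the vertical axis and under the line, while hydrolases spread from ARSB at the left (-2.36) to CTSK at the top (2.57).

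Cathepsins, the lysosomal proteases, split by gene and by siRNA. Of 10 genes, 5 rose and 4 fell with siZIP7_1 (50% and 40%, against 34.8% and 35.9% of all tested genes). With siZIP7_2, 8 rose and 2 fell (80% and 20%, against 38.5% and 39.3%). In all, 6 of the 10 went in opposite directions, where 18.7% of all tested genes did. CTSB, CTSL, CTSS and CTSZ fell with siZIP7_1 and rose with siZIP7_2, whereas CTSC and CTSH did the reverse. CTSS, a cysteine protease of antigen-presenting cells (ENSG00000163131, chromosome 1, 150730196 to 150765957), was at 7.48, 6.53 and 7.62 CPM in siNC, 2.15, 2.47 and 1.98 CPM with siZIP7_1 and 24.7, 25.6 and 24.5 CPM with siZIP7_2. The siRNA groups thus lay 11.4-fold apart. The corresponding log2 fold changes were -1.72 ± 0.12 (adjusted p = 1.58e-13, edgeR) and 1.79 ± 0.084 (adjusted p = 1.50e-17), and their difference was 3.51 ± 0.10 (adjusted p = 8.54e-23).

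CTSB, a broad cysteine protease and among the most abundant of the cathepsins, was at 332, 317 and 328 CPM in siNC, 151, 154 and 152 CPM with siZIP7_1 and 632, 559 and 617 CPM with siZIP7_2. Its fitted log2 fold changes were -1.10 ± 0.049 (adjusted p = 6.82e-18, edgeR) and 0.89 ± 0.048 (adjusted p = 4.84e-16), a difference of 1.99 ± 0.050 (adjusted p = 4.24e-24). CTSL, its close relative, went from 62.6, 61.4 and 62.3 CPM to 36.5, 39.4 and 37.5 CPM with siZIP7_1 and to 140, 133 and 138 CPM with siZIP7_2. CTSZ, a carboxypeptidase, moved less, with means of 210, 172 and 252 CPM. On the other side, CTSC, which activates granule serine proteases in immune cells, went from 184, 196 and 193 CPM to 288, 311 and 293 CPM with siZIP7_1 and to 111, 109 and 114 CPM with siZIP7_2. CTSH, an aminopeptidase, had means of 18.3, 27.2 and 15.3 CPM, and its fall with siZIP7_2 (log2 -0.26, adjusted p = 0.00309, edgeR) was not called under upper-quartile scaling (-0.15, adjusted p = 0.0734).

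CTSS, CTSB, CTSL and CTSZ, the cathepsins that fell with siZIP7_1 and rose with siZIP7_2, are also abundant in macrophages. Markers of that cell type were therefore read beside them. The summed level of 6 macrophage markers was 5.67 to 7.22 CPM in siNC, 1.48 to 1.64 CPM with siZIP7_1 and 16.8 to 22.5 CPM with siZIP7_2, the same order as for those cathepsins. CSF1R (means of 4.15, 0.101 and 8.93 CPM) and CD14 (1.81, 0.544 and 10 CPM) supplied most of it in siNC and siZIP7_2, and PTPRC was the largest with siZIP7_1. PTPRC, the pan-leukocyte marker, was at 0.402, 0.875 and 0.327 CPM, C1QA was at 0 in all 9 libraries, and AIF1 and ITGAM had group means at or below 0.15 CPM. The shared order holds only for the cathepsins picked by direction, since CTSC and CTSH had the opposite one. CD68, from a list of further lysosomal membrane proteins, did not share that order (means of 2.57, 0.982 and 2.57 CPM). Other genes overlap 85.8% of its exonic length. Fibroblast markers summed to 53.1 to 59.1, 110 to 118 and 180 to 204 CPM in siNC, siZIP7_1 and siZIP7_2, nearly all of it COL1A1, endothelial markers to 6.86 to 7.51, 7.47 to 9.32 and 12.8 to 14.4 CPM, and luminal breast markers to 24.6 to 25.8, 20.4 to 21.5 and 21.0 to 22.9 CPM. Within the endothelial list PECAM1 (means of 3.02, 0.102 and 8.63 CPM) had the order of CTSS, CTSB, CTSL and CTSZ, and KDR (3.78, 7.94 and 3.11 CPM) had the opposite one. The part of any of these genes in the cathepsin result was not tested. All libraries came from a single cell line. In bulk RNA, fewer cells expressing a gene and less of its RNA per cell cannot be told apart.

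CTSK, CTSA and CTSF rose with each siRNA. CTSK, the collagen-degrading cathepsin of osteoclasts, was scarce at 1.09, 1.46 and 1.21 CPM in siNC, 3.24, 2.95 and 2.95 CPM with siZIP7_1 and 7.53, 7.80 and 6.88 CPM with siZIP7_2. Its log2 fold changes of 1.29 ± 0.17 (adjusted p = 7.89e-08, edgeR) and 2.57 ± 0.15 (adjusted p = 1.46e-15) gave the largest mean rise among the 50 genes. CTSA, a carboxypeptidase that shields the sialidase NEU1, moved from 222, 219 and 217 CPM to 300, 290 and 293 CPM and to 306, 280 and 294 CPM. It rose by a log2 of 0.42 ± 0.046 with each siRNA (adjusted p = 2.17e-09 and 2.14e-09, edgeR), with an interval of -0.10 to 0.09 for the difference. CTSF, also scarce, stood at 4.47, 4.12 and 3.95 CPM, then 5.57, 5.02 and 5.62 CPM, then 6.44, 5.07 and 5.19 CPM, with log2 fold changes of 0.37 ± 0.12 (adjusted p = 0.00947, edgeR) and 0.41 ± 0.12 (adjusted p = 0.00422).

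CTSD, the main aspartic protease of the lysosome, was the most abundant hydrolase per length, at 110 CPM per kb in siNC. It rose with siZIP7_2 alone, by a log2 of 0.21 ± 0.053 (adjusted p = 0.000592, edgeR), from 345, 339 and 348 CPM to 423, 358 and 417 CPM, where library 2 stood close to siNC. Other genes overlap 52.7% of its exonic length, and reads on shared stretches can be left uncounted.

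**Figure D4:**
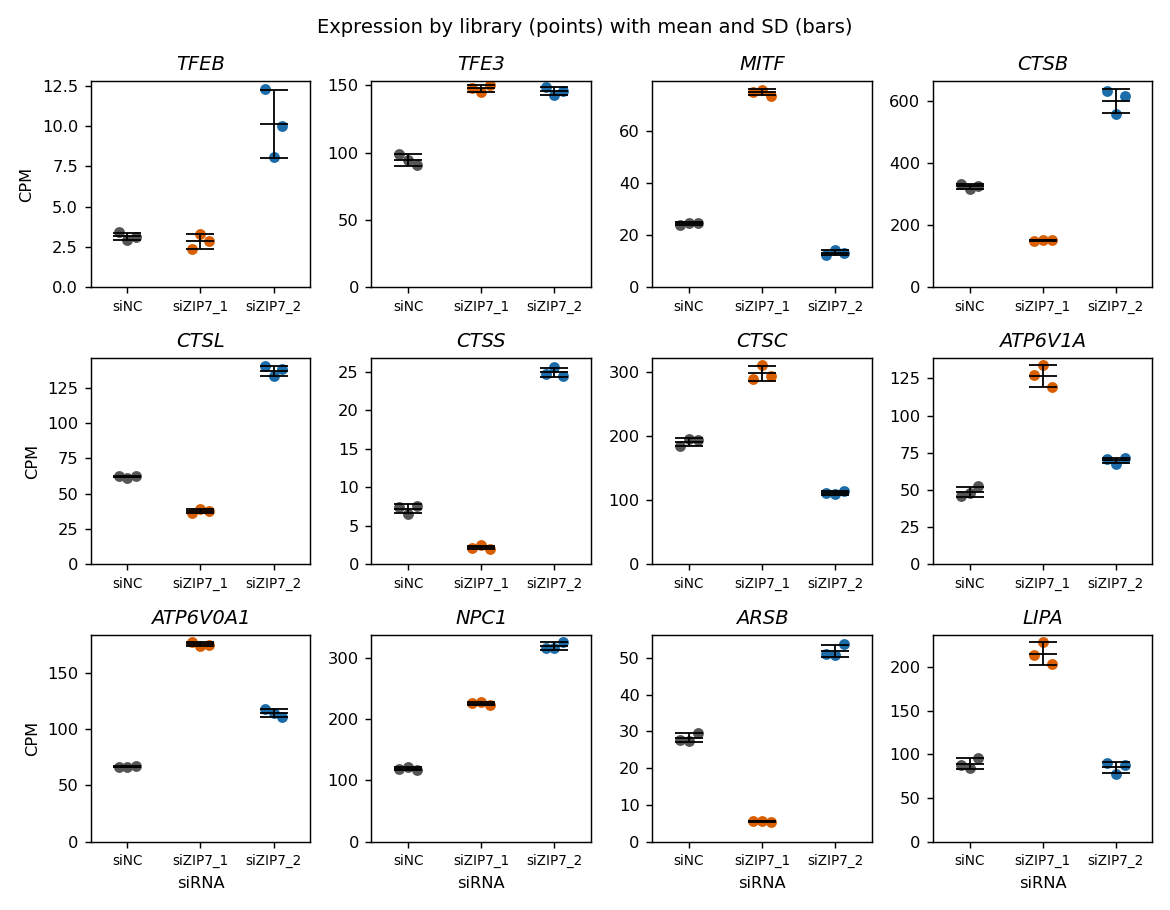
CPM (vertical axis, from 0) of 12 genes in each library (points) by siRNA (horizontal axis), with the mean and SD of the 3 libraries in black. TFEB rises with siZIP7_2 alone and TFE3 with both siRNAs, and MITF, CTSB, CTSL, CTSS, CTSC and ARSB take opposite directions.

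Among the 13 other hydrolases, 7 rose and 3 fell with siZIP7_1 (53.8% and 23.1%, against 34.8% and 35.9% of all tested genes). With siZIP7_2, 5 rose and 4 fell (38.5% and 30.8%, against 38.5% and 39.3%), and the share that rose equalled the background. ARSB, the sulfatase that trims dermatan and chondroitin sulfate (ENSG00000113273, chromosome 5, 78777209 to 78986087), showed the widest drop of the 50 genes. It went from 27.6, 27.5 and 29.7 CPM in siNC to 5.57, 5.60 and 5.40 CPM with siZIP7_1, and up to 51.2, 50.7 and 53.8 CPM with siZIP7_2. The log2 fold changes were -2.36 ± 0.075 (adjusted p = 2.16e-21, edgeR) and 0.88 ± 0.058 (adjusted p = 4.63e-14), 3.23 ± 0.072 apart (adjusted p = 1.83e-25). The other sulfatases did not share it. ARSA, which cleaves sulfatide, rose with siZIP7_2 alone (means of 8.20, 9.19 and 15.6 CPM), and IDS, which removes sulfate from heparan and dermatan sulfate, was slightly lower with each (172, 150 and 156 CPM).

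A group of enzymes rose mainly with siZIP7_1. LIPA, the acid lipase that frees cholesterol from its esters, went from 87.6, 84.0 and 96.3 CPM to 214, 229 and 203 CPM with siZIP7_1 and stood at 89.8, 77.9 and 87.4 CPM with siZIP7_2. ASAH1, the acid ceramidase, went from 56.5, 52.8 and 59.6 CPM to 138, 152 and 137 CPM with siZIP7_1 and stood at 63.7, 59.2 and 62.9 CPM with siZIP7_2. ASAH1 rose by a log2 of 1.34 ± 0.054 with siZIP7_1 (adjusted p = 5.67e-19, edgeR). Its value of 0.13 ± 0.056 with siZIP7_2 (adjusted p = 0.031) lost the call without siNC library 1 (0.13), siNC library 2 (0.09), siZIP7_2 library 1 (0.12) or siZIP7_2 library 3 (0.13), so its place among the genes higher with each siRNA is weak. TPP1, a tripeptidyl peptidase, rose with siZIP7_1 and fell with siZIP7_2 (57.0, 116 and 44.8 CPM, log2 1.03 ± 0.050 and -0.35 ± 0.052). GAA rose with siZIP7_1 alone (72.4, 104 and 68.4 CPM), as did IDUA, which acts on heparan and dermatan sulfate (21.3, 26.7 and 23.1 CPM).

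SMPD1, the acid sphingomyelinase, showed the converse. It was at 42.5, 42.5 and 42.1 CPM in siNC, 46.6, 45.4 and 44.2 CPM with siZIP7_1 and 87.1, 76.1 and 84.2 CPM with siZIP7_2, and rose with siZIP7_2 by a log2 of 0.96 ± 0.054 (adjusted p = 1.26e-15, edgeR). SMPD1 makes the ceramide that ASAH1 breaks down, and each of the pair rose by over 1.5-fold with a different siRNA. GLA, the alpha-galactosidase of globosides, fell from 53.0, 55.3 and 54.9 CPM to 45.2, 47.2 and 42.1 CPM and to 43.2, 44.3 and 47.0 CPM, by a log2 of -0.28 ± 0.055 with each siRNA (adjusted p = 5.03e-05 and 4.62e-05, edgeR). NEU1 rose from 83.1, 82.7 and 83.3 CPM to 102, 98.4 and 102 CPM and to 98.8, 84.8 and 101 CPM, with log2 fold changes of 0.28 ± 0.054 (adjusted p = 3.76e-05, edgeR) and 0.19 ± 0.055 (adjusted p = 0.00251).

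GUSB, a beta-glucuronidase often used as a reference gene, fell with siZIP7_2 from 61.2, 63.5 and 59.8 CPM to 38.7, 39.9 and 41.1 CPM (log2 -0.62 ± 0.052, adjusted p = 6.94e-12, edgeR). Its small rise with siZIP7_1 (0.12 ± 0.050, adjusted p = 0.0375) was not called without siNC library 1 (0.11), siNC library 3 (0.11), siZIP7_1 library 1 (0.11) or siZIP7_1 library 2 (0.11), nor with DESeq2 (0.11) or without the low-count filter (0.11), and its count among the opposite genes rests on it. The fall of IDS with siZIP7_2 (log2 -0.14 ± 0.052, adjusted p = 0.016, edgeR) was likewise lost without siNC library 3 (-0.07), siZIP7_2 library 2 (-0.12) or siZIP7_2 library 3 (-0.14). It was also lost with DESeq2 (-0.11), DESeq2 size factors (-0.11), upper-quartile scaling (-0.03) and a minimum of 10 counts in every library (-0.07). HEXA, the alpha subunit of beta-hexosaminidase, was called with neither siRNA (52.1, 56.4 and 48.6 CPM). Without siNC library 3 or siZIP7_1 library 3 its change with siZIP7_1 was called (0.14 and 0.16, against 0.11).

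The luminal cofactors rose with each siRNA. PSAP, whose product is cut into the saposins that hand lipids to hydrolases, had the highest level of the 50 genes per length, at 267 CPM per kb in siNC. It went from 855, 866 and 870 CPM to 1280, 1290 and 1270 CPM with siZIP7_1 and 1510, 1380 and 1530 CPM with siZIP7_2, with log2 fold changes of 0.57 ± 0.048 (adjusted p = 1.33e-11, edgeR) and 0.77 ± 0.048 (adjusted p = 1.11e-14). NPC2, which carries cholesterol through the lumen to NPC1, went from 92.2, 90.8 and 92.2 CPM to 240, 242 and 246 CPM and to 126, 114 and 127 CPM. Fitted log2 fold changes were 1.40 ± 0.048 (adjusted p = 1.02e-20, edgeR) and 0.41 ± 0.048 (adjusted p = 8.34e-09).

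NPC1, the membrane transporter that exports that cholesterol, had the reverse order. It stood at 118, 122 and 117 CPM in siNC, 226, 227 and 222 CPM with siZIP7_1 and 316, 315 and 326 CPM with siZIP7_2, with log2 fold changes of 0.92 ± 0.045 (adjusted p = 4.90e-17, edgeR) and 1.42 ± 0.045 (adjusted p = 1.77e-21). NPC1 was thus higher with siZIP7_2 than with siZIP7_1 by 0.50 ± 0.044 and NPC2 lower by a log2 of -0.99 ± 0.047 (adjusted p = 1.51e-11 and 1.44e-17, edgeR). LAMP1, the abundant coat protein of the lysosomal membrane, rose by 0.49 ± 0.047 and 0.52 ± 0.047, and MCOLN1 by 0.45 ± 0.056 and 0.47 ± 0.056. The intervals of their differences were -0.07 to 0.12 and -0.09 to 0.13. Under upper-quartile scaling LAMP1 was called higher with siZIP7_2 than with siZIP7_1 (log2 0.11, adjusted p = 0.0245, edgeR). LAMP2 rose slightly with siZIP7_1 alone (204, 235 and 196 CPM), and SCARB2, the receptor that brings glucocerebrosidase to lysosomes, fell with siZIP7_2 alone (171, 171 and 144 CPM). CLN3 was listed at 0.487, 0.609 and 0.659 CPM and was called with neither siRNA, and overlapping genes cover 30.9% of its exonic length.

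Other lysosomal genes, in lists written around the 50, were described by their counts, which are read against the shares of all tested genes (34.8% higher and 35.9% lower with siZIP7_1, 38.5% and 39.3% with siZIP7_2). A share near these is not a result about the list. Of 16 tested further pump subunits and assembly factors, 7 rose and 6 fell with siZIP7_1 and 6 rose and 3 fell with siZIP7_2 (43.8% and 37.5%, then 37.5% and 18.8%), with median log2 fold changes of 0.18 and 0.16. ATP6V0A4, a V0 subunit of kidney and inner ear, rose from a mean of 1.69 CPM to 12.7 and 5.88 CPM (log2 2.94 and 1.82), and ATP6AP1L, a relative of ATP6AP1, from 1.67 CPM to 4.29 and 14.4 CPM (1.37 and 3.11). VMA21, which assembles V0 and was picked after its values were seen, fell with each (means of 104, 71.2 and 41.1 CPM). Of 33 tested further lysosomal enzymes, 18 rose and 10 fell with siZIP7_1 and 13 rose and 14 fell with siZIP7_2 (54.5% and 30.3%, then 39.4% and 42.4%), with medians of 0.20 and 0.00. GALC, the galactosylceramidase, rose from 52.9 CPM to 274 and 87.9 CPM (log2 2.37 and 0.73), and the cysteine protease CTSV fell from 2.47 CPM to 0.61 and 0.761 CPM (-2.01 and -1.70).

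Of 27 further lysosomal membrane proteins, 18 rose and 7 fell with siZIP7_1 and 9 rose and 7 fell with siZIP7_2 (66.7% and 25.9%, then 33.3% and 25.9%). Under upper-quartile scaling the siZIP7_2 counts became 14 and 5. That scaling shifted all tested genes upward by a median log2 of 0.11 in siZIP7_2 against siNC. The shares of all tested genes called higher and lower under it were not counted, so such counts have no background here. SLC29A3, a nucleoside transporter, rose (6.52, 18.0 and 12.4 CPM) and CLN6 fell (43.8, 32.0 and 14.1 CPM). LAPTM5, a lysosomal protein of blood cells picked after its values were seen, moved as CTSS did (110, 20.3 and 484 CPM). Of 19 genes for delivering enzymes to lysosomes, 10 rose and 5 fell with siZIP7_1 and 5 rose and 9 fell with siZIP7_2 (52.6% and 26.3%, then 26.3% and 47.4%). Under upper-quartile scaling the siZIP7_2 counts were 6 and 7. The mannose 6-phosphate receptor gene M6PR rose (55.9, 101 and 95.5 CPM) and SUMF2, a relative of the sulfatase-activating enzyme, fell (206, 160 and 36.0 CPM).

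Of 23 genes listed around TFEB control, mostly of mTORC1, the Rag GTPases and folliculin, 15 rose and 7 fell with siZIP7_1 and 11 rose and 8 fell with siZIP7_2 (65.2% and 30.4%, then 47.8% and 34.8%). FLCN, which encodes folliculin, rose from 56.2 CPM to 162 and 95.1 CPM (log2 1.53 and 0.76, adjusted p = 2.63e-20 and 3.50e-13 by edgeR), and LAMTOR1, the membrane anchor of Rag GTPases, fell from 99.6 CPM to 33.4 and 63.8 CPM (-1.58 and -0.64). The folliculin partners FNIP1 (57.5, 137 and 112 CPM) and FNIP2 (47.6, 102 and 72.6 CPM), and RRAGC (23.8, 56.0 and 40.0 CPM), also rose with each siRNA, and RRAGD with siZIP7_1 (15.4, 38.1 and 17.0 CPM). These 4 were picked after their values were seen. Of 25 genes for lysosome fusion and movement, 15 rose and 6 fell with siZIP7_1 and 10 rose and 11 fell with siZIP7_2 (60% and 24%, then 40% and 44%). BORCS6, part of a complex that moves lysosomes outward, rose with each (9.07, 17.3 and 21.4 CPM).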

How the data were processed

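The authors sequenced single reads of total RNA and deposited unnormalized counts, 1 table of Ensembl genes per library. Trim Galore 0.4.1, FastQC 0.11.2, STAR, HTSeq 0.6.1 and DESeq2 1.16.1 are named in the submitters' processing notes. The strand setting and genome build are not given in the sources used here. Reads without a gene (7.43 to 11.5%) and ambiguous reads (2.66 to 2.91%) were left out, and no reads with several alignments were present, which lowers counts of genes with near-identical copies. ATP6V1E1, ATP6V1G1, ATP6V0C, ATP6V0E1, CTSL, GUSB and IDS have named pseudogenes and are uncertain for that reason. Of 58395 identifiers, 58275 were in GENCODE release 29 (GRCh38), the source of symbols, positions, gene overlaps and exonic lengths.

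Tests were run with edgeR 4.0.16 in R 4.3.3 (TMM, its low-count filter, 1 fit of 3 groups over 9 libraries with 6 residual degrees of freedom, quasi-likelihood test, Benjamini-Hochberg adjustment over 16761 genes, calls at 0.05). SE was taken as the log2 fold change divided by the root of F. CPM are TMM-scaled, and ± of CPM is SD over 3 libraries. Counting error alone sets a floor of 3 counts, or 0.0941 to 0.129 CPM. The fit was tested on simulated data, in which far fewer genes changed than were called here. DESeq2 1.42.0 and other filters, scalings and sample sets were alternatives. Members, lists and tests were chosen with earlier results of these data known. Full values are given for the 3 factors, the 3 genes per role with the largest mean change in 1 direction with each siRNA, the 4 widest opposite genes and 2 genes per surrounding list, of which 1 is not reported here. Other genes given library by library were added outside this rule. Groups lay apart in some of them, such as CTSL and SMPD1, and overlapped in others, such as LIPA and CTSD. Replicates of a group differed by more than counting noise (chi-square per gene 2.41 to 6.42), so none was a duplicate.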

Additional observations from a re-analysis of the deposited data

Results flagged for a closer look

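Effects of the siRNAs on 12 genes had opposite signs against siNC and a called difference from each other (edgeR quasi-likelihood test across all genes). The log2 difference, siZIP7_2 minus siZIP7_1, was 3.51 for CTSS, 3.23 for ARSB, 1.99 for CTSB, 1.86 for CTSL, 1.01 for ATP6V1D and 0.55 for CTSZ. It was -2.49 for MITF, -1.42 for CTSC, -1.38 for TPP1, -1.36 for ATP6V0E1, -0.83 for CTSH and -0.74 for GUSB. The 12 were chosen by these calls, so it follows almost from the choice that their siZIP7_1 and siZIP7_2 libraries did not overlap. Over all 50 genes, the siZIP7_2 libraries lay fully above those of siZIP7_1 for 13 and fully below for 26. Such separation was not counted over all tested genes, of which 38.1% were called higher and 40.6% lower with siZIP7_2 than with siZIP7_1. The 13 and 26 are therefore not a result about these genes. Of the 50 genes, 24% went in opposite directions against 18.7% of all tested genes.

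Reads that fell on no gene were outside every comparison. They made up 7.43 to 8.28% of the counted and uncounted reads in siNC, 7.80 to 9.62% with siZIP7_1 and 9.99 to 11.5% with siZIP7_2, where the lowest library (9.99%) was above every siNC library. Their part in the changes of the lysosomal genes was not tested.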

How the results depend on the processing

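The counts of genes called, for all 50 genes, the pump and the hydrolases, stayed within 1.5 times under every alternative, apart from pump genes higher with siZIP7_2 than with siZIP7_1, of which there were 2 instead of 1 under upper-quartile scaling. That scaling moved the median of all tested genes by 0.11 (log2) in siZIP7_2 against siNC. Under it the siZIP7_2 medians against siNC became 0.39 (pump) and 0.30 (hydrolases), and those against siZIP7_1 became -0.54 and 0.081. The pump median with siZIP7_2 was 0.24 against siNC and -0.67 against siZIP7_1 with no low-count filter, and 0.36 and -0.57 when at least 10 counts were asked of every library. With a library left out, the pump median with siZIP7_1 ran from 0.77 to 0.86 and the hydrolase median with siZIP7_2 from 0.15 to 0.27.

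Values near 0 changed sign, none of them called before or after. In siZIP7_1 against siNC, SCARB2 was -0.0012 with DESeq2, -0.0013 with its size factors in edgeR, -0.0032 with no filter and -0.052 to 0.068 with a library left out, and CLN3 was -0.18 to 0.67 with a library left out, the lowest without siZIP7_1 library 3. In siZIP7_2 against siNC, upper-quartile scaling gave 0.059 for ATP6V1G1, 0.025 for GAA, 0.0068 for HEXA, 0.033 for LIPA and 0.054 for LAMP2. The 10-count filter gave 0.026 for ATP6V1G1, 0.0012 for LIPA and 0.021 for LAMP2, and ATP6V1G1 was -0.098 to 0.014 with a library left out. Between the siRNAs, CTSA and TFE3 were 0.031 and 0.017 with DESeq2, 0.031 and 0.017 with its size factors, 0.077 and 0.062 under upper-quartile scaling, 0.047 and 0.033 under the 10-count filter and 0.017 and 0.0027 when only the groups compared were fitted. ATP6AP2 was 0.034 under upper-quartile scaling and 0.0041 under the 10-count filter. With no filter, ATP6AP1 was -0.0075, CTSF -0.011, GLA -0.047, LAMP1 -0.022 and MCOLN1 -0.027. With a library left out, GLA was -0.053 to 0.032, CTSA -0.033 to 0.029, MCOLN1 -0.027 to 0.071, ATP6AP2 -0.11 to 0.026, CTSF -0.073 to 0.11, CLN3 -0.24 to 0.62 and LAMP1 -0.015 to 0.048. The cause was not tested. Upper-quartile scaling and the 10-count filter also called ATP6V1E1 (0.17 and 0.13) and ATP6V1F (0.21 and 0.17) higher with siZIP7_2, where the main values were 0.06 and 0.10. They called IDUA higher with siZIP7_2 (0.22 and 0.19) and HEXA (0.14 in each) and SMPD1 (0.13 and 0.12) higher with siZIP7_1, and ATP6V1B2 lost its call between the siRNAs (-0.06 and -0.09). Between the siRNAs they also called IDS higher with siZIP7_2 (0.15 and 0.12). NEU1 was called lower with siZIP7_2 than with siZIP7_1 with no filter or without siZIP7_2 library 3 (-0.14 in each). DESeq2 also called ATP6V1F with siZIP7_2 (0.13), and with no filter GAA (-0.13), HEXA (-0.15) and LIPA (-0.13) were called lower with siZIP7_2.

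Libraries with the same number did not deviate together (correlations from -0.092 to 0.12 over 9 pairs), so the numbers were not taken as pairs. With the replicate block, 34 genes were higher and 9 lower with siZIP7_1, as without it, and no gene's call changed.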
